A study of Homo sapiens with 48 samples.

Results

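The 10 genes followed here are 3 forkhead transcription factors of the O class, FOXO1, FOXO3 and FOXO4, and 7 genes known to respond to them, FBXO32, PIK3IP1, IRS2, CCNG2, TXNIP, BCL6 and SESN3. They were picked by name from the 58870 genes of the deposited files. The choice used a measured value: FBXO32 and PIK3IP1 were included because they rose within 4 h of IDE196. The IDE196 values at 4 h are therefore given below as a description with no test, for every one of the 10 genes. The 10 genes, and the lists of further genes used below, were also chosen with earlier results of these data known. Counts of them set beside shares of all genes are therefore descriptions, not independent tests. All 10 passed the filter on low counts in each of the 4 experiments, with between 9310 reads (PIK3IP1) and 130375 reads (IRS2) over the 48 libraries.

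RNA was sequenced from 3 uveal melanoma cell lines, 92-1, MEL202 and MP41, which are established cultures from tumours of the pigmented layer of the eye, all labelled WT. Each line received FHT-1015 or the solvent DMSO for 4 h or 24 h, with 3 biological replicates in each group. FHT-1015 blocks SMARCA4 and SMARCA2, the motor subunits of BAF chromatin remodelling complexes. Line 92-1 also received IDE196, an inhibitor of protein kinase C (PKC), the kinase family downstream of the mutant G proteins of this tumour. The times were the same, and a DMSO group of its own went with it, whose replicates are numbered 4, 5 and 6. No dose is given in the labels. The replicates are labelled as biological without saying what they were grown or treated apart from, so p-values measure the spread between these samples.

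FOXO proteins switch on genes that slow growth, and they are held in check by insulin and growth factor signals. PI3K activates the kinase AKT, AKT phosphorylates FOXO proteins, and the phosphorylated proteins are kept out of the nucleus by 14-3-3 proteins. Several of their targets act back on the same pathway, so that PIK3IP1 dampens PI3K, SESN3 dampens the mTORC1 kinase complex, and IRS2 carries the signal of the insulin and IGF1 receptors to PI3K. RNA counts show the amount of transcript, not where a FOXO protein is or whether it is phosphorylated, and in bulk RNA more cells with a transcript and more transcript per cell cannot be told apart.

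Positions are those of GENCODE release 29 on GRCh38. FOXO1 lies at chr13:40469953-40666597 on the minus strand, FOXO3 at chr6:108559835-108684774 on the plus strand and FOXO4 at chrX:71096197-71103535 on the plus strand. PIK3IP1 lies at chr22:31281593-31292534, IRS2 at chr13:109752698-109786568, TXNIP at chr1:145992435-145996600, BCL6 at chr3:187721377-187745727 and SESN3 at chr11:95165513-95232541, all on the minus strand. CCNG2 lies at chr4:77157151-77433388 on the plus strand. Counting took no account of strand, and for BCL6 the sum of the stranded columns was 1.15 times the unstranded column, against 1.05 for IRS2 and 1 to 1.01 for the others. Part of the reads at the BCL6 locus thus fell where it overlaps AC072022.1 and AC072022.2 on the opposite strand. FOXO1 also overlaps LINC00598 on its own strand, and PIK3IP1 overlaps PIK3IP1-AS1 on the opposite one. FOXO3 has a near-identical processed pseudogene, FOXO3B, with 4310 reads against 75911 for FOXO3. FOXO1 has FOXO1B, with 228 reads against 19031. Values of both factors carry the uncertainty of reads that fit either copy.

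RefSeq promoter windows (GRCh38.p14, 250 bases before to 50 after each start) were at hand for 9 of the 10 genes, all but FBXO32. They were searched on both strands for GTAAACA, the letters at the core of sites bound by FOXO and other forkhead proteins. The other patterns were a pair of CACGNG boxes 5 bases apart, the carbohydrate response element bound by MondoA or ChREBP with MLX, and the E-box CACGTG, which is one of the forms a CACGNG box can take. GTAAACA was found in windows of TXNIP, PIK3IP1 and FOXO4, 3 of 9 genes, and in those of 4.19% of all 27305 genes with a window. The paired E-box was found in TXNIP alone of the 9, against 0.0732% of all genes, and CACGTG in CCNG2 alone, 30 bases before its RefSeq start and within an exon of the longer GENCODE gene, against 8.77%. The TXNIP promoter is printed because it holds both kinds of letters, the forkhead core 124 bases and the paired E-box 88 bases before the start, in capitals in that order. It runs over chr1:145996620-145996829 on the minus strand, upstream of the annotated gene. The sites of PIK3IP1 (chr22:31292456-31292482, minus strand, in an annotated exon, with the core read on the opposite strand) and FOXO4 (chrX:71095864-71095890, plus strand, outside the GENCODE gene) are printed with the core in capitals. Both cores lie downstream of the RefSeq start, from position 17 in PIK3IP1 and 24 in FOXO4. These are matches of letters in a fixed window, and no binding was measured.
TXNIP: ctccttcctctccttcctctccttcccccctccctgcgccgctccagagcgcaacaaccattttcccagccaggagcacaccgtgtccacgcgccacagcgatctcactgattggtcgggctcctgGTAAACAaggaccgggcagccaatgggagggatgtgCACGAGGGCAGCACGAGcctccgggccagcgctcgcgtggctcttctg
PIK3IP1: aaagagaggcTGTTTACcagaacagca
FOXO4: ccggcgagtgGTAAACAgagacgtcag

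Libraries held 11394088 to 32317711 reads in genes. Of 12 melanocyte lineage markers, 11 or 12 were above 1 CPM (TMM-scaled reads of a gene per 1000000 reads of the library) in each DMSO group. The summed markers of immune cells and endothelium stayed at or below 3.68 and 2.08 CPM there, those of epithelium at or below 19.8 and those of fibroblasts at or below 45. The summed 8 fibroblast markers were higher with FHT-1015 at 24 h in 92-1 (14.6 to 17.6 CPM against 4.15 to 5.22) and MEL202 (36.4 to 43.8 against 7.21 to 8.76) and with IDE196 at 24 h (13.8 to 24.6 against 8.3 to 12.6), and overlapped in MP41 (32 to 41.6 against 29 to 45). In these treated groups 2, 3, 3 and 4 of the 8 were over 1 CPM and none was at 0. With FHT-1015 at 24 h the summed melanocyte markers were lower than in DMSO in all 3 lines. They were 4942 to 5402 CPM against 19488 to 23577 in 92-1, 2812 to 3265 against 8284 to 10067 in MEL202, and 5550 to 6172 against 12429 to 13786 in MP41. At 4 h of FHT-1015 they were already lower in 92-1, at 16022 to 18208 CPM against 20677 to 21879, and overlapped in MEL202 and MP41. With IDE196 at 24 h they were 18917 to 21356 against 17147 to 19890. The share of reads from mitochondrial genes was also higher in 92-1 at 24 h. It was 8.205% to 9.549% with FHT-1015 against 7.07% to 7.434%, and 6.664% to 7.739% with IDE196 against 3.793% to 5.285%. In MP41 with FHT-1015 at 24 h it was 3.561% to 5.962% against 1.305% to 3.42%, and in MEL202 the ranges overlapped, 5.357% to 7.774% against 3.324% to 5.737%. The part of these shifts in the changes below was not tested. In MEL202 with FHT-1015 at 4 h, replicate 2 stood apart, with reads in 17592 genes against 21106 to 23984 in the other MEL202 libraries.

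Without drug, levels per kilobase of exon (CPM per kb, over all 48 libraries) put IRS2, the insulin receptor substrate, at or near the top in every line. In 92-1 at 4 h the order ran from IRS2 (12 ± 2.16, SD, n = 3) and FOXO3 (9.98 ± 0.837) through FOXO4 (5.72 ± 0.816), CCNG2 (4.29 ± 0.253), SESN3 (2.85 ± 0.394), TXNIP (2.21 ± 0.426) and FBXO32 (1.7 ± 0.598) down to BCL6 (1.08 ± 0.0593), FOXO1 (0.852 ± 0.135) and PIK3IP1 (0.75 ± 0.256). Neighbours in this order whose libraries overlapped or touched were IRS2 and FOXO3, SESN3 and TXNIP, TXNIP and FBXO32, FBXO32 and BCL6, and FOXO1 and PIK3IP1. FOXO3 was the most abundant of the 3 factors in 92-1 and FOXO1 the least, with FOXO1 at 2.55 ± 0.849 in MEL202 and 3.71 ± 0.516 in MP41. TXNIP, which binds thioredoxin and limits glucose uptake, had the highest mean in MP41 at 4 h (7.21 ± 1.24), where its libraries overlapped those of IRS2 and FOXO3, and at 24 h its mean there (5.59 ± 1.19) lay below those of IRS2, FOXO4 and FOXO3. In MEL202 it came last at 4 h (0.671 ± 0.0579) and at 24 h (0.718 ± 0.164). The second 92-1 DMSO group, which belongs to IDE196, had higher levels of FOXO1 (1.67 ± 0.18) and IRS2 (21.4 ± 1.78) at 4 h than the first, so each drug was read only against its own DMSO.

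With IDE196, FBXO32 and PIK3IP1 were already high at 4 h, and so were FOXO3, CCNG2, TXNIP and SESN3. By 24 h 9 of the 10 genes had risen, PIK3IP1 by 13.9-fold, and BCL6 alone had not. At 4 h every one of the 10 had a positive log2 fold change, and in 8 of them every treated library lay above every DMSO library, a pattern shown by 14.8% of all 15437 genes tested. Since this contrast helped choose the genes, nothing is read from those counts. At 24 h, 9 genes were called higher and 0 lower at an adjusted p under 0.05, against 28.7% and 29.4% of all genes tested. The 10 genes, BCL6 included, had a median log2 fold change of 1.69, against 0.03 over all genes.

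FOXO1 measured 16.6, 15.3 and 16.5 CPM with IDE196 at 4 h against 10.8, 9.38 and 8.89 with DMSO. At 24 h it measured 40.8, 39.6 and 43.5 CPM against 8.48, 7.8 and 9.35. The log2 fold change was 2.27 ± 0.11 (SE, adjusted p = 4.17e-11). The treated libraries lay above the controls at both times, and further above at 24 h. FOXO3 went from 70.5, 88.3 and 86.6 CPM with DMSO at 24 h to 236, 252 and 285 with IDE196 (log2 fold change 1.66 ± 0.10, adjusted p = 4.94e-10). At 4 h it measured 196, 183 and 193 against 99.2, 86.2 and 89.9. All FOXO3 libraries with the drug stood well above the controls at both times. FOXO4 had overlapping groups at 4 h, 29.9, 27.9 and 35.4 CPM against 25.9, 26.8 and 31.1. It rose least of the 3 at 24 h, to 50.6, 50.8 and 50.1 CPM against 25, 32.1 and 35.4, a log2 fold change of 0.71 ± 0.12 (adjusted p = 8.64e-05).

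**Figure D1:**
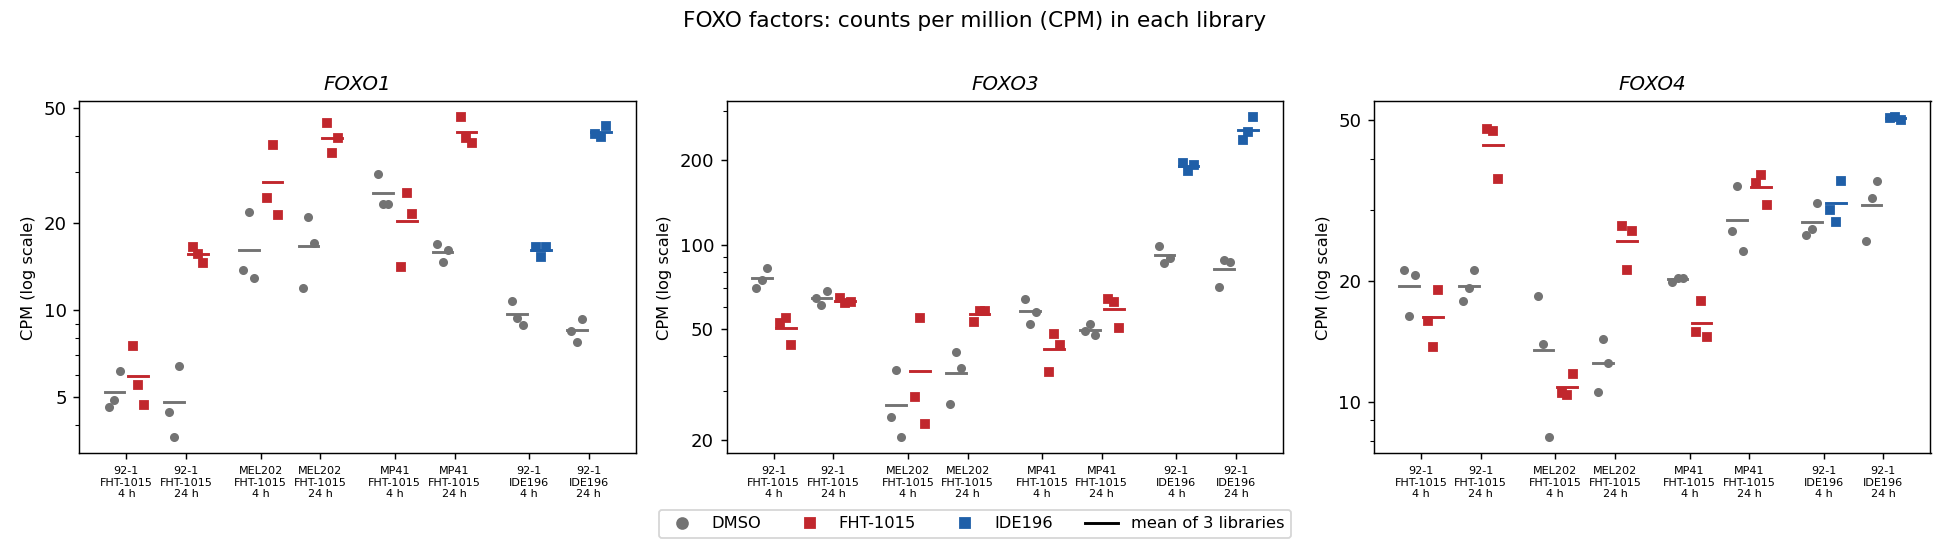
CPM (log scale) of FOXO1, FOXO3 and FOXO4 in each library (points) with the mean of 3 libraries (bars), for DMSO (grey circles), FHT-1015 (red squares) and IDE196 (blue squares), by line, drug and time. The IDE196 libraries at 24 h lie above their DMSO libraries for all 3 factors, whereas FOXO3 with FHT-1015 in 92-1 lies below DMSO at 4 h and among the DMSO libraries at 24 h.

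Among the targets that rose, FBXO32, a muscle-atrophy ubiquitin ligase also called atrogin-1, was the one whose IDE196 libraries stood higher at 4 h than at 24 h. The gene lies on the minus strand at chr8:123497889-123541206. It measured 66.6, 61 and 77.5 CPM at 4 h against 16.9, 12.5 and 16.3 with DMSO, and 36.4, 44.7 and 45.2 at 24 h against 13.1, 17.3 and 22.5. The groups were apart at both times, and the log2 fold change at 24 h was 1.26 ± 0.17 (adjusted p = 4.46e-06) beside 2.17 ± 0.17 at 4 h, the latter without a test. PIK3IP1, an inhibitor of PI3K at the cell membrane, went the other way, from 6.54, 6.18 and 9.21 CPM at 4 h (DMSO 1.37, 2.04 and 1.96) to 27, 27.8 and 26 at 24 h (DMSO 1.93, 1.42 and 2.42). Its log2 fold change at 24 h was 3.80 ± 0.20 (adjusted p = 7.7e-11), the largest of the 10 genes, with no overlap of the groups at either time. SESN3, a sestrin that restrains mTORC1, measured 208, 211 and 228 CPM at 24 h against 31.9, 31.2 and 30.1 (log2 fold change 2.80 ± 0.19, adjusted p = 2.22e-09). At 4 h it had measured 147, 87.3 and 106 against 50.5, 26.6 and 36. All its treated libraries lay above the controls at both times.

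IRS2 measured 574, 492 and 566 CPM at 24 h against 160, 168 and 198 (log2 fold change 1.63 ± 0.10, adjusted p = 6.6e-10). At 4 h the values were 312, 265 and 288 against 176, 156 and 153. Its groups were apart at both times. CCNG2, an unusual cyclin that opposes cell division, measured 77.9, 79.5 and 80 CPM at 24 h against 19.8, 23 and 29, a log2 fold change of 1.73 ± 0.13 (adjusted p = 4.06e-09). Its IDE196 libraries had been at 76.9, 65.2 and 80 CPM at 4 h already, against 25.5, 24.8 and 30.5. TXNIP measured 28.8, 23.8 and 19.3 CPM at 24 h against 4.09, 7.61 and 5.4 (log2 fold change 2.08 ± 0.21, adjusted p = 2.47e-07). At 4 h it stood at 20.2, 15.5 and 14.9 against 4.93, 6.91 and 4.44. BCL6, a zinc finger repressor of transcription, did not rise with the other genes. Its 24 h libraries, at 6.73, 6.59 and 5.78 CPM, lay among the controls at 6.5, 5.72 and 8.16 (log2 fold change -0.09 ± 0.21, adjusted p = 0.722). Its 4 h libraries at 12.8, 7.28 and 8.25 overlapped the controls at 8.63, 6.31 and 6.53.

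FHT-1015 at 4 h gave another picture in the same line. In 92-1, SESN3, FBXO32 and FOXO3 fell and PIK3IP1 rose, 1 gene higher and 3 lower, against 12.9% and 16.7% of all 15685 genes tested. SESN3 measured 12.2, 10.5 and 10.2 CPM against 30, 25.4 and 33.5, a 2.69-fold drop (log2 fold change -1.43 ± 0.13, adjusted p = 8.78e-07). FBXO32 measured 4.51, 4.55 and 6.98 CPM against 8.27, 12 and 16.9, a log2 fold change of -1.23 ± 0.26 (adjusted p = 0.00216). FOXO3 measured 52.7, 54.6 and 43.7 CPM against 70.2, 74.6 and 82.7, a log2 fold change of -0.59 ± 0.10 (adjusted p = 0.00025, and 0.0516 when all 48 samples were fitted together). In these 3 genes each FHT-1015 library lay below each DMSO library, as in 22.4% of all genes. PIK3IP1 measured 16.9, 16.8 and 17.5 CPM against 2.01, 2.54 and 3.87, a log2 fold change of 2.61 ± 0.19 (adjusted p = 1.02e-07), with the treated libraries well clear of the controls. The other 6 genes were not called by edgeR's quasi-likelihood test. FOXO1, FOXO4, CCNG2 and TXNIP overlapped DMSO. IRS2 (log2 fold change 0.37 ± 0.15, adjusted p = 0.067) and BCL6 (0.51 ± 0.21, adjusted p = 0.0899) lay above it in every library. IRS2 was called by DESeq2 (0.0442), limma-voom (0.00445) and without the filter (0.00261), BCL6 by limma-voom (0.0258), without the filter (0.0155) and with only the compared samples (0.016), and FOXO4 (0.0326) and CCNG2 (0.0172) by limma-voom.

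In MEL202 and MP41 none of the 10 genes was called at 4 h by edgeR's quasi-likelihood test fitted within each line, where few genes were called at all. The shares were 0.157% higher and 0.522% lower of 15913 in MEL202, and 0.0708% higher and 0.154% lower of 15543 in MP41. At an unadjusted p under 0.05 there were 4 of the 10 in MEL202 and 1 in MP41. DESeq2 called 2 and 0, limma-voom 0 and 1 (FOXO3 in MP41, 0.0388), and edgeR's test with all 48 samples fitted together 4 in MEL202, where FOXO1 (0.0288) and IRS2 (0.0142) were 2 of them. Replicate 2 of MEL202, the library with few genes detected, was the highest treated one for FOXO1 (37.4 CPM), FOXO3 (54.7) and IRS2 (107) and the lowest for CCNG2 (14.3); without it their log2 fold changes were 0.50, -0.06, 0.46 and 0.06. FBXO32 in MEL202 measured 8.29, 6.74 and 8.03 CPM against 12.5, 14.8 and 12.3, with the groups apart (log2 fold change -0.78 ± 0.19, adjusted p = 0.0991, but called by DESeq2 at 0.00643 and with all 48 samples at 0.0291). PIK3IP1 in MEL202 measured 7.99, 8.35 and 8.13 CPM against 4.79, 3.87 and 5.15, also apart (0.82 ± 0.22, adjusted p = 0.153, but called by DESeq2 at 0.0185 and with all 48 samples at 0.00559). In MP41 PIK3IP1 did not separate from DMSO, at 5.99, 7.15 and 5.93 CPM against 5.87, 6.62 and 6.15 (log2 fold change 0.03, 95% interval -0.29 to 0.36). The effect on PIK3IP1 at 4 h differed among the lines (adjusted p = 1.41e-06 for the interaction of line and drug, a call made for 1.38% of all 18395 genes), and by this test it was the only one of the 10 for which it did. With limma-voom FBXO32 (0.0157) and SESN3 (0.0187) were called too, and in edgeR 2 genes were called without MEL202 DMSO 4 h replicate 2 or without MEL202 FHT-1015 4 h replicate 3.

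By 24 h of FHT-1015 6 to 8 of the 10 genes were called higher in each line by edgeR's quasi-likelihood test and none was called lower; limma-voom and the fit without the filter called IRS2 lower in 92-1. In 92-1, 7 were called higher, against 29.2% of all genes, and 0 lower, against 31.4%. In MEL202, 6 were called higher, against 8.69%, and 0 lower, against 10.1%. In MP41, 8 were called higher, against 17.4%, and 0 lower, against 18.7%. Median log2 fold changes of the 10 genes were 1.42, 1.21 and 1.26 in that order of lines, beside -0.00, -0.01 and 0.07 over all genes. FOXO1, PIK3IP1, CCNG2 and TXNIP were called higher in every line.

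FOXO1 measured 16.6, 15.6 and 14.6 CPM in 92-1 at 24 h against 4.46, 3.64 and 6.41, a log2 fold change of 1.69 ± 0.21 (adjusted p = 3.92e-06). In MEL202 it measured 44.3, 34.9 and 39.3 CPM against 11.9, 21 and 17.1 (1.25 ± 0.29, adjusted p = 0.00785). MP41 had 46.5, 39.3 and 38 against 17, 14.7 and 16.2 (1.37 ± 0.20, adjusted p = 0.000176). No treated library of FOXO1 fell into the range of its controls in any line, and the effect was not called different among lines (adjusted p = 0.574). FOXO4 rose in 92-1, from 17.8, 19.2 and 21.3 CPM to 47.4, 46.9 and 35.7 (1.16 ± 0.15, adjusted p = 4.97e-06). In MEL202 it was called as well, at 27.3, 21.2 and 26.6 CPM against 10.6, 14.3 and 12.5 (1.00 ± 0.27, adjusted p = 0.0171). That call was lost without DMSO 24 h replicate 1 (log2 fold change 0.90, adjusted p = 0.0797) or 3 (1.01, 0.0611), or FHT-1015 24 h replicate 1 (0.94, 0.0693) or 3 (0.96, 0.063). In MP41 FOXO4 overlapped DMSO (0.27 ± 0.17, adjusted p = 0.217, and 0.0153 by limma-voom). FOXO3 was not called in any line. It measured 64.7, 62 and 62.2 CPM against 64.5, 60.9 and 68.1 in 92-1 (-0.04 ± 0.10, adjusted p = 0.769). Its log2 fold changes were 0.69 ± 0.31 (adjusted p = 0.139) in MEL202 and 0.25 ± 0.16 (0.227) in MP41. In MEL202 the FOXO3 groups were nonetheless apart, 53.1, 57.9 and 58.1 CPM against 26.9, 41.5 and 36.1, and the gene was called there by limma-voom (adjusted p = 0.00022) and in fits of all 48 samples (0.0066) or only the compared ones (0.00739).

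**Figure D2:**
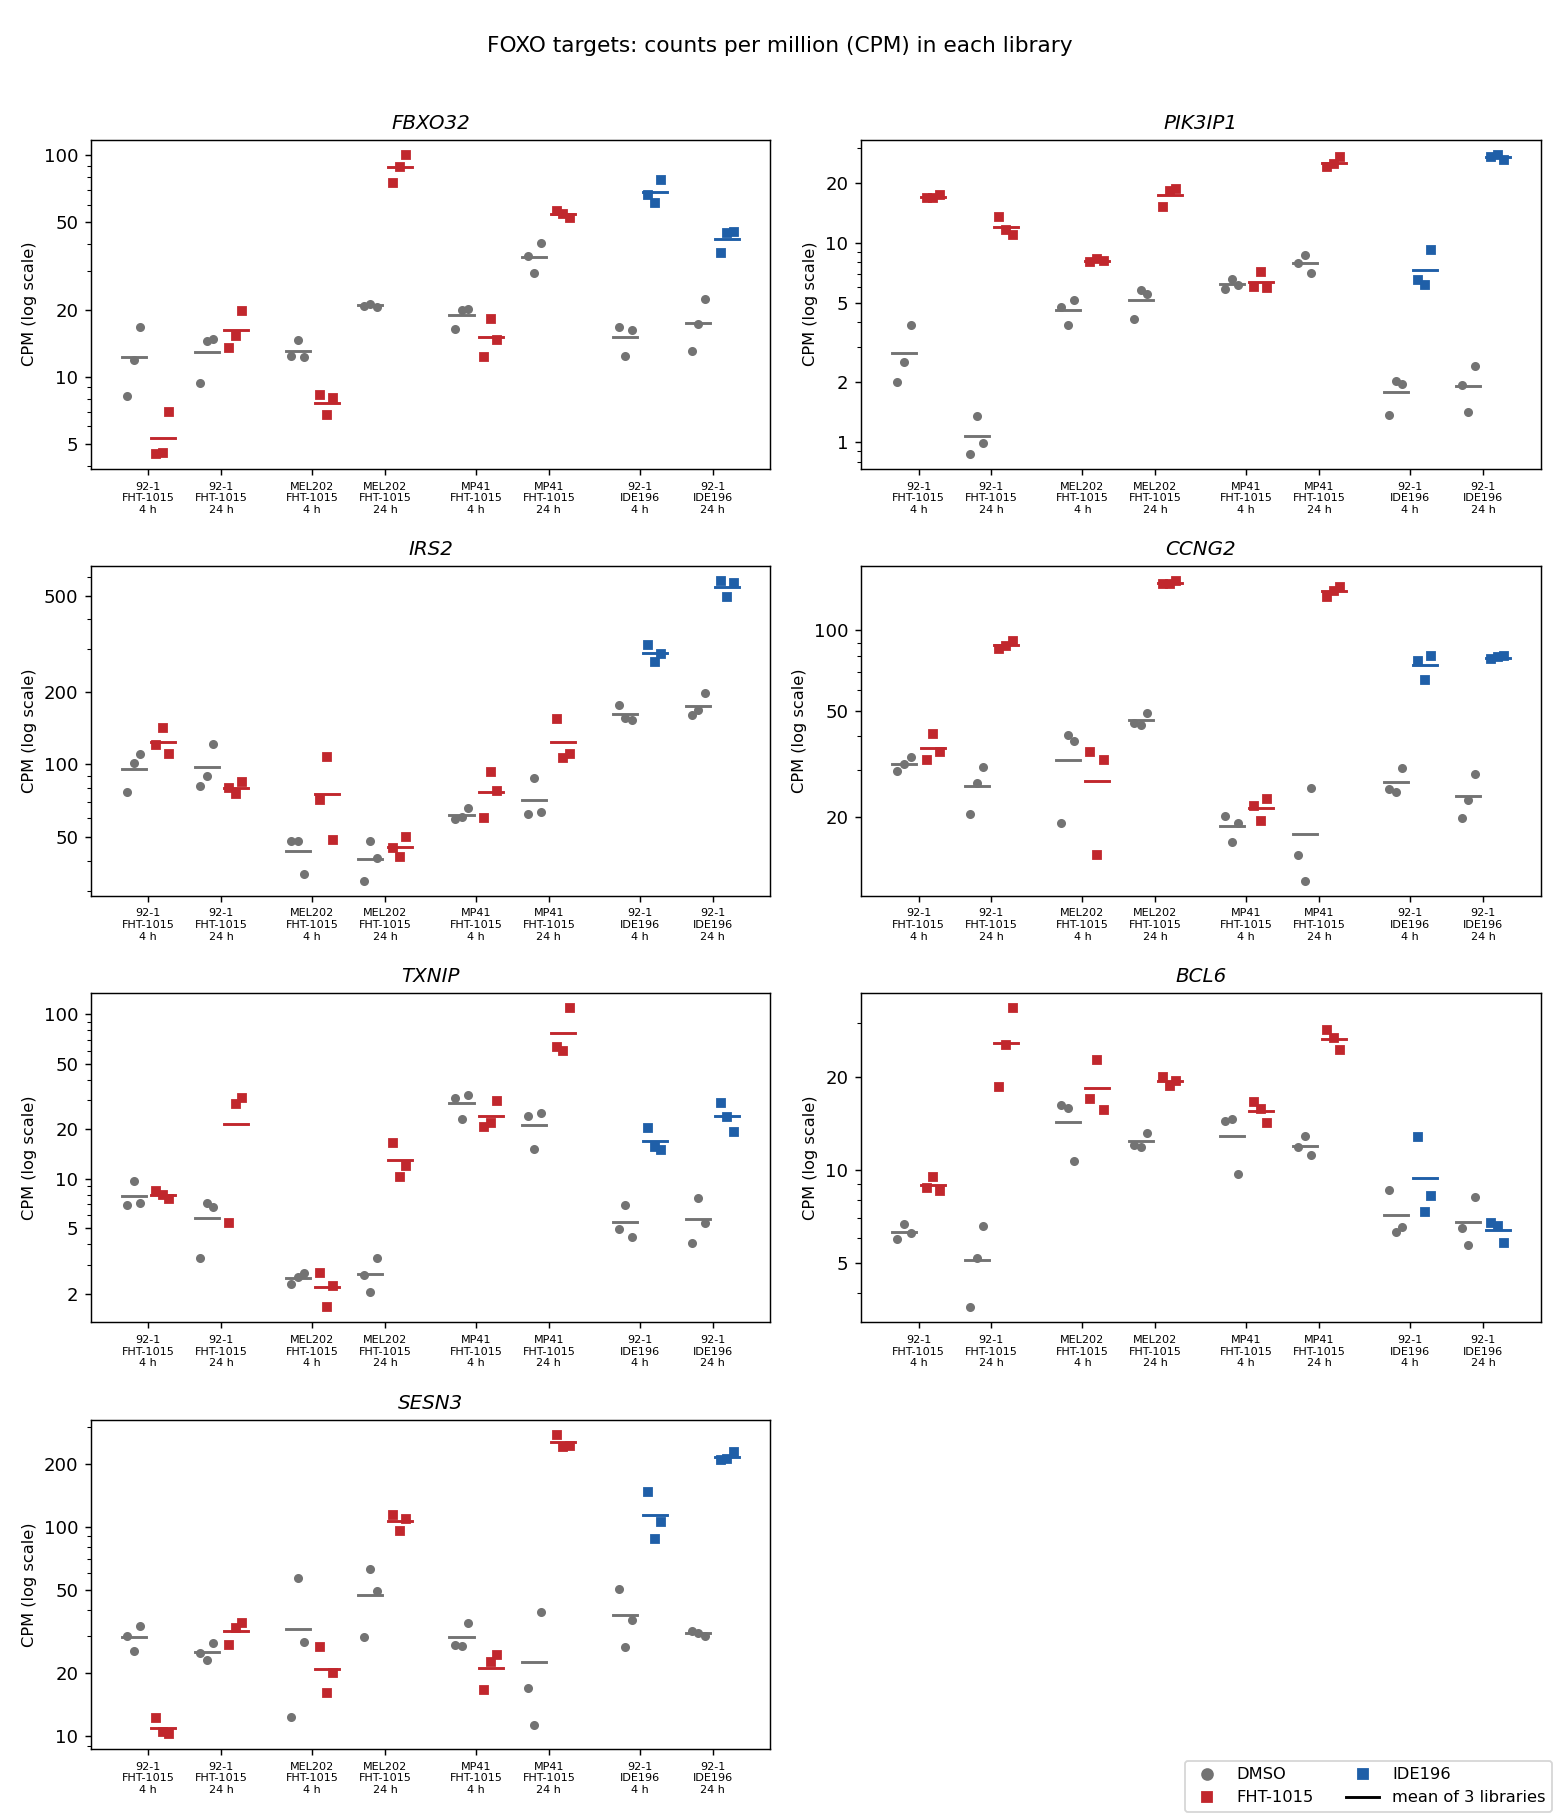
CPM (log scale) of the 7 targets in each library (points) with the mean of 3 libraries (bars), for DMSO (grey circles), FHT-1015 (red squares) and IDE196 (blue squares), by line, drug and time. SESN3 and FBXO32 in 92-1 lie below DMSO at 4 h of FHT-1015 and above it with IDE196, and 1 TXNIP library of 92-1 with FHT-1015 at 24 h, at 5.39 CPM, lies among the DMSO libraries.

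PIK3IP1 at 24 h of FHT-1015 measured 13.5, 11.6 and 11 CPM in 92-1 against 0.873, 1.36 and 0.986, an 11.3-fold rise (log2 fold change 3.50 ± 0.23, adjusted p = 3.5e-09). It measured 15.2, 18.2 and 18.7 CPM in MEL202 against 4.13, 5.78 and 5.56 (1.75 ± 0.22, adjusted p = 0.000135). MP41 had 24, 25 and 27 CPM against 7.98, 8.74 and 7.03 (1.68 ± 0.16, adjusted p = 5.14e-06). No treated library of PIK3IP1 came near its controls in any line. CCNG2 measured 85.5, 87.7 and 91.6 CPM in 92-1 against 20.5, 26.8 and 30.7 (1.77 ± 0.13, adjusted p = 1.22e-08). It measured 150, 150 and 153 in MEL202 against 45.1, 44.1 and 49 (1.72 ± 0.33, adjusted p = 0.00239) and 134, 141 and 146 in MP41 against 14.4, 11.5 and 25.7 (3.02 ± 0.25, adjusted p = 1.48e-06). Treated and control libraries of CCNG2 were apart in each line.

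TXNIP was called higher in 92-1 (log2 fold change 1.93 ± 0.44, adjusted p = 0.00136), where its libraries at 5.39, 28.4 and 30.8 CPM were uneven and the first lay within the controls at 3.31, 7.16 and 6.72. In MEL202 it measured 16.5, 10.2 and 12 CPM against 2.61, 2.04 and 3.29 (2.27 ± 0.29, adjusted p = 0.000141). MP41 showed 62.7, 59.8 and 109 against 23.9, 15.1 and 24.9 (1.85 ± 0.27, adjusted p = 0.000135). The effect on TXNIP was not called different among lines (adjusted p = 0.817), although its control level in MP41 was the highest and in MEL202 the lowest. IRS2 was called in MP41 only, at 155, 106 and 110 CPM against 62.4, 88 and 63.8 (0.79 ± 0.20, adjusted p = 0.00787, and 0.0551 when only the compared samples were fitted). It overlapped DMSO in 92-1 (-0.28 ± 0.15, adjusted p = 0.109, but called lower by limma-voom, 0.0136, and without the filter on low counts, 0.0208) and MEL202 (0.16 ± 0.27, adjusted p = 0.744), and the difference among lines was not called (adjusted p = 0.0895, but 0.0387 with all 48 samples, 0.022 without the filter and 4.77e-05 by limma-voom).

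FBXO32, BCL6 and SESN3 were each strong in 1 line and weak or not called in another. FBXO32 measured 75.5, 88.6 and 101 CPM in MEL202 against 20.9, 21.5 and 20.8, a 4.19-fold rise (log2 fold change 2.07 ± 0.19, adjusted p = 1.31e-05). It measured 56.2, 54.4 and 52 CPM in MP41 against 35.1, 29.4 and 40.3 (0.63 ± 0.17, adjusted p = 0.0117, and 0.061 when only the compared samples were fitted). In 92-1 its groups overlapped, 13.6, 15.4 and 19.9 CPM against 9.46, 14.6 and 14.9 (0.34 ± 0.24, adjusted p = 0.246). BCL6 was highest against DMSO in 92-1, at 18.6, 25.4 and 33.6 CPM against 3.58, 5.18 and 6.59 (2.36 ± 0.22, adjusted p = 1.73e-07). MP41 came next, at 28.4, 26.9 and 24.5 against 11.9, 12.9 and 11.2 (1.15 ± 0.18, adjusted p = 0.000262). In MEL202 the BCL6 groups were apart, at 20.1, 18.8 and 19.4 CPM against 12.1, 11.9 and 13.2, but the gene was not called (0.64 ± 0.22, adjusted p = 0.0575). It was called by DESeq2 (0.0184), limma-voom (0.00017) and fits of all 48 samples (0.018) or only the compared ones (0.00345).

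SESN3 reached 276, 241 and 243 CPM in MP41 against 17, 11.3 and 39.1, an 11.2-fold rise (log2 fold change 3.49 ± 0.36, adjusted p = 8.4e-06). DMSO replicate 3 was the high control, and without it the value was 4.09. In MEL202 it measured 114, 95.7 and 109 CPM against 29.7, 62.8 and 49.1 and was not called (1.17 ± 0.43, adjusted p = 0.0707), although no treated library overlapped the controls. SESN3 was called there by DESeq2 (0.0315), limma-voom (4.2e-05), without the filter (0.000411) and in fits of all 48 samples (0.00607) or only the compared ones (0.00364). In 92-1 the SESN3 call was marginal, at 27.1, 33 and 34.7 CPM against 25, 23.1 and 27.7 with overlap (0.32 ± 0.13, adjusted p = 0.0376). It was lost without DMSO 24 h replicate 1 (log2 fold change 0.31, adjusted p = 0.0848) or 2 (0.25, 0.151), DMSO 4 h replicate 1 (0.31, 0.0553), FHT-1015 24 h replicate 2 (0.29, 0.109) or 3 (0.26, 0.139), or FHT-1015 4 h replicate 2 (0.31, 0.055). It was also lost when all 48 samples were fitted together (0.34, 0.458) or no filter on low counts was used (0.31, 0.0605).

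The 24 h effect of FHT-1015 was tested for a difference among the 3 lines in one fit of 36 libraries. It was called different for 6 of the 10 genes, FOXO4, FBXO32, PIK3IP1, CCNG2, BCL6 and SESN3, against 12% of all genes. Adjusted p-values were 1.58e-05 for PIK3IP1, 0.000142 for SESN3, 0.000173 for BCL6 and 0.000175 for FBXO32. They were closer to the threshold for CCNG2 (0.0241), whose call was lost without MP41 DMSO 24 h replicate 1 (0.0942) or 2 (0.108) or MP41 FHT-1015 24 h replicate 2 (0.0516) or 3 (0.0612). FOXO4 was close as well (0.0351) and lost its call in 9 of the 36 leave-one-out fits (0.0511 to 0.143): without 92-1 DMSO replicate 1 or 2, 92-1 FHT-1015 replicate 1 or 2, MEL202 FHT-1015 replicate 3, MP41 DMSO replicate 2, or any MP41 FHT-1015 replicate, all at 24 h, and with no filter on low counts (0.152). The 36 fits include those without a 4 h library, which is not part of the 24 h difference. The lines ranked differently from gene to gene, so that 92-1 had the largest fold for PIK3IP1 and BCL6, MEL202 for FBXO32, and MP41 for CCNG2 and SESN3.

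**Figure D3:**
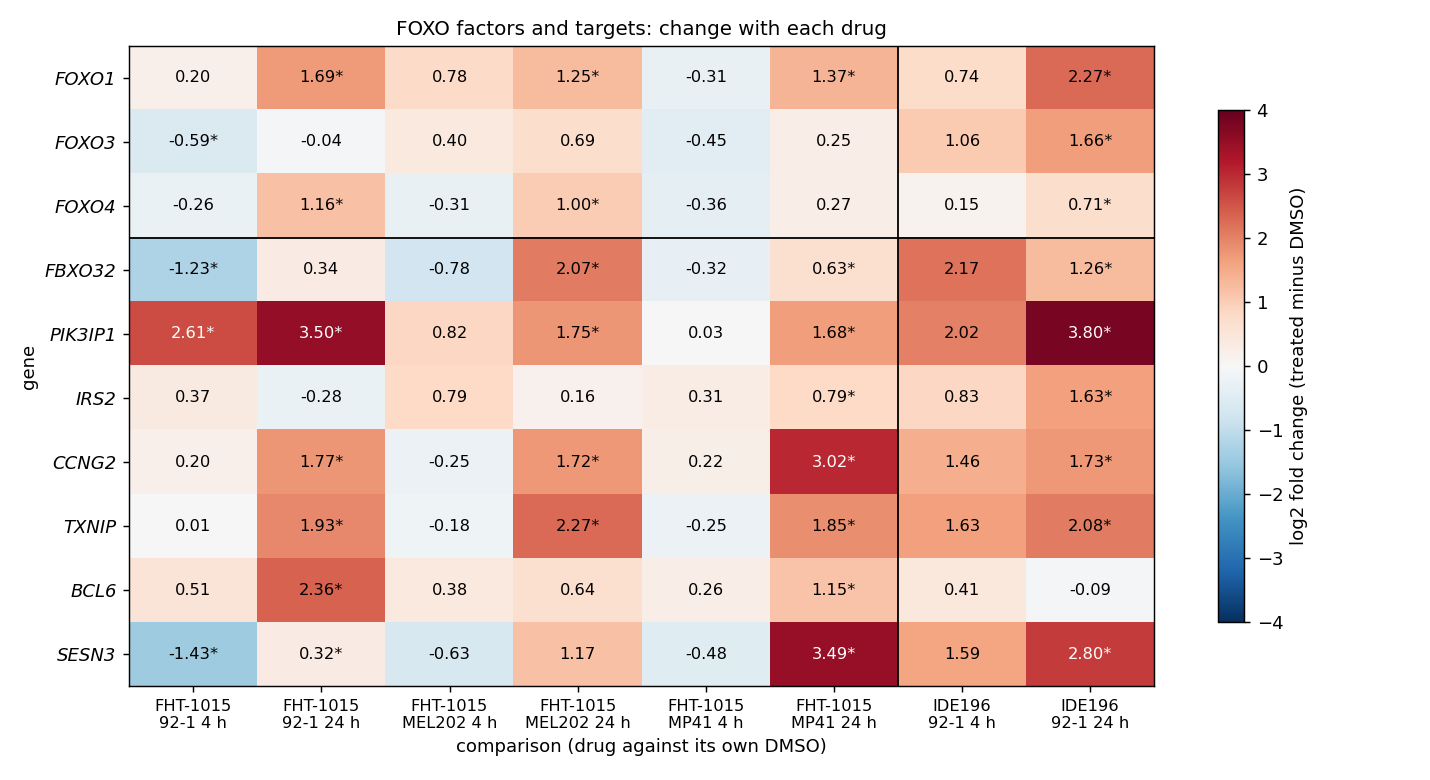
Log2 fold changes (colour and number) of the 3 factors (above the line) and 7 targets in the 8 comparisons of a drug with its own DMSO. Asterisks mark an adjusted p under 0.05; the IDE196 4 h column was not tested, and values below 0 are confined to 4 h of FHT-1015 apart from FOXO3 (-0.04) and IRS2 (-0.28) in 92-1 and BCL6 (-0.09) with IDE196 at 24 h.

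The effect of FHT-1015 moved upward between 4 h and 24 h for most of the genes. In 92-1 the 24 h effect differed from the 4 h effect for all 10, against 45.5% of all genes tested, and was more positive for all but IRS2. Shares over all genes in this paragraph count differences in either direction. SESN3, from -1.43 to 0.32, had a difference of 1.75 ± 0.18 (log2, adjusted p = 1.96e-06), and FBXO32, from -1.23 to 0.34, one of 1.57 ± 0.36 (adjusted p = 0.00215). FOXO3 came back to the control level, a difference of 0.55 ± 0.14 (adjusted p = 0.00359), and IRS2 was the exception with -0.66 ± 0.21 (adjusted p = 0.0173). Both calls were lost when all 48 samples were fitted together (adjusted p = 0.161 and 0.0994), and that of IRS2 without FHT-1015 4 h replicate 2 (0.0506). In MEL202, 3 genes differed between times by edgeR's quasi-likelihood test, against 6.89% of all genes: FBXO32 by 2.85 ± 0.27 (adjusted p = 9.2e-05), TXNIP by 2.46 ± 0.41 (adjusted p = 0.00331) and CCNG2 by 1.97 ± 0.46 (adjusted p = 0.0198), the last lost without any 1 of the 6 libraries at 24 h (0.0519 to 0.0573). FOXO4 (1.31, adjusted p = 0.0514), SESN3 (1.81, 0.0923) and PIK3IP1 (0.93, 0.0958) were not called there. DESeq2 called all 3 (0.0102, 0.0327 and 0.0285), as did the fit of all 48 samples (0.000592, 0.00522 and 0.0154). Limma-voom called FOXO4 (0.0155) and SESN3 (0.0185), RLE scaling FOXO4 (0.0469) and the fit without the filter SESN3 (0.000178). In MP41, 8 differed, against 18.6% of all genes, all upward (5 without FHT-1015 4 h replicate 3), led by SESN3 with 3.97 ± 0.48 (adjusted p = 0.000128) and CCNG2 with 2.80 ± 0.34 (adjusted p = 0.000118). SESN3 stood at 4.56 without DMSO 24 h replicate 3. Control levels were not constant between times. FBXO32 in MP41 was at 16.5, 20.1 and 20.4 CPM with DMSO at 4 h and 35.1, 29.4 and 40.3 at 24 h. FOXO1 in MP41 was lower at 24 h in the controls, from 29.5, 23.3 and 23.4 CPM to 17, 14.7 and 16.2. PIK3IP1 in 92-1 went from 2.01, 2.54 and 3.87 CPM to 0.873, 1.36 and 0.986 with DMSO and from 16.9, 16.8 and 17.5 to 13.5, 11.6 and 11 with FHT-1015. Its larger effect at 24 h (a difference of 0.89 ± 0.31) thus came with lower levels in both groups.

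Both drugs were given to 92-1, and at 24 h their effects, each against its own DMSO, were called different for 5 of the 10 genes, against 33% of all 16917 genes tested. IDE196 had the larger effect on SESN3 (FHT-1015 minus IDE196 -2.47 ± 0.25 in log2, adjusted p = 7.01e-09), IRS2 (-1.92 ± 0.19, adjusted p = 5.99e-09), FOXO3 (-1.69 ± 0.14, adjusted p = 2.04e-10) and FBXO32 (-0.91 ± 0.31, adjusted p = 0.0252). BCL6 was the reverse, with the larger effect under FHT-1015 (2.45 ± 0.32, adjusted p = 6.33e-07). The FBXO32 difference did not pass in 8 of 24 leave-one-out fits (adjusted p 0.051 to 0.089), which were those without DMSO replicates 2 or 3, IDE196 DMSO replicates 4 or 5, FHT-1015 replicates 1 or 2, or IDE196 replicates 2 or 3, all at 24 h. The 24 fits include those without a 4 h library, which is not part of the 24 h difference. No difference was called for PIK3IP1 (-0.30, 95% interval -0.96 to 0.36), CCNG2 (0.04, -0.32 to 0.41), TXNIP (-0.15, -1.17 to 0.88), FOXO4 (0.45, 0.06 to 0.84) and FOXO1 (-0.58, -1.03 to -0.14), and these intervals leave room for differences of the sizes they span. FOXO1, at an adjusted p of 0.0511, was called by DESeq2 (0.0364), limma-voom (0.0103), the fit of only the compared samples (0.0418) and the sum of both stranded columns (0.0497). At 4 h, side by side and without a test, log2 fold changes with FHT-1015 and IDE196 were -1.23 and 2.17 for FBXO32, -1.43 and 1.59 for SESN3, -0.59 and 1.06 for FOXO3, and 2.61 and 2.02 for PIK3IP1. FBXO32, SESN3 and FOXO3 thus lay on opposite sides of DMSO under the drugs, while PIK3IP1 lay above it under both.

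**Figure D4:**
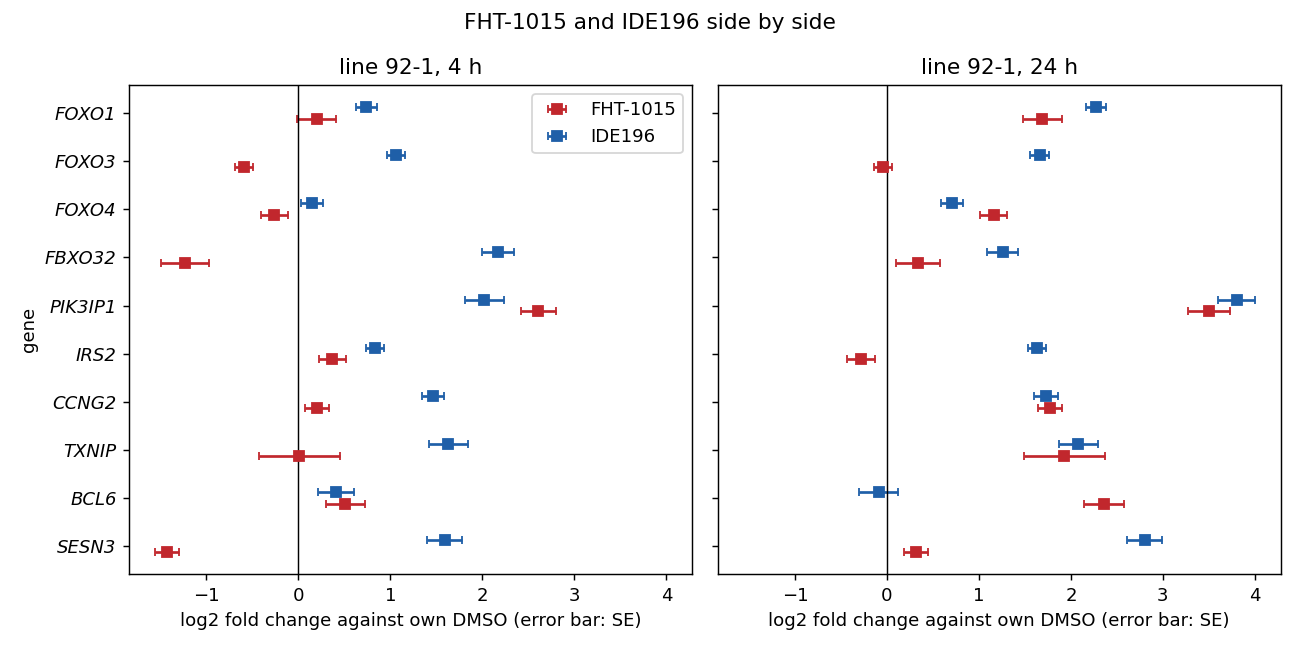
Log2 fold changes of the 10 genes in line 92-1 with FHT-1015 (red) and IDE196 (blue), each against its own DMSO, at 4 h (left) and 24 h (right); bars are standard errors. At 4 h SESN3 stands at -1.43 and 1.59 under the drugs, and at 24 h BCL6 stands at 2.36 with FHT-1015 and -0.09 with IDE196.

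Other genes known as FOXO targets did not move as one. Of 25 listed, 21 were tested in each experiment. With IDE196 at 24 h 12 rose and 4 fell, median log2 fold change 0.53 beside 0.03 over all genes. With FHT-1015 at 24 h 8 rose and 9 fell in 92-1 (median 0.05), 7 and 4 in MEL202 (0.41) and 8 and 5 in MP41 (0.37). Over all genes the shares that rose and fell were 28.7% and 29.4% with IDE196, and 29.2% and 31.4%, 8.69% and 10.1%, and 17.4% and 18.7% with FHT-1015 in the same order of lines; the list counts here and below stand beside these. At 4 h of FHT-1015 in 92-1, 2 rose and 9 fell, against 12.9% and 16.7% of all genes. TRIM63, the muscle ubiquitin ligase MuRF1 that is often studied with FBXO32, fell with FHT-1015 at 24 h by 3.98 ± 0.15 in log2 in 92-1 (80.2 to 5.11 CPM), with -5.10 ± 0.47 in MEL202 and -5.61 ± 0.26 in MP41, and rose with IDE196 (0.53 ± 0.10, adjusted p = 0.000229). ERBB3, a receptor kinase that FOXO factors induce, took opposite directions: its log2 fold change was 2.19 ± 0.11 with IDE196 (adjusted p = 8.54e-11) and -2.98 ± 0.12, -2.66 ± 0.33 and -2.24 ± 0.19 with FHT-1015 in 92-1, MEL202 and MP41. CCND1, the cyclin D1 gene that FOXO factors repress, fell in all 4 comparisons, by 1.42 with IDE196 and by 1.86, 3.43 and 2.27 with FHT-1015. MXD4, an antagonist of MYC, rose in all 4, by 1.99 with IDE196 and by 2.02, 1.51 and 1.89 with FHT-1015. TSC22D3 (GILZ) rose in all 4 as well, by 1.18, 1.33, 0.82 and 1.83 in the same order, and CITED2 rose with FHT-1015 by 2.77, 2.32 and 1.03, beside 0.04 ± 0.14 with IDE196 (adjusted p = 0.829). CDKN1A, which encodes the cell cycle inhibitor p21, fell with FHT-1015 in the 3 lines, by 0.95, 0.68 and 0.42. By edgeR's test CDKN1A was near the threshold in MEL202 (adjusted p = 0.0324) and MP41 (0.0438), as was TSC22D3 in MEL202 (0.0494).

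Of 30 genes of the PI3K, AKT and mTOR pathway, 29 were tested. With IDE196 at 24 h 13 rose and 6 fell, and with FHT-1015 at 24 h 11 rose and 11 fell in 92-1, 5 and 1 in MEL202, and 7 and 6 in MP41. At 4 h of FHT-1015 in 92-1, 2 rose and 10 fell, against 12.9% and 16.7% of all genes. The 24 h shares over all genes were 28.7% and 29.4% with IDE196 and 29.2% and 31.4% with FHT-1015 in 92-1. DDIT4 (REDD1), an inhibitor of mTORC1, rose by 2.94 ± 0.26 in log2 with IDE196 (adjusted p = 3.57e-08) and by 1.61, 1.09 and 1.50 with FHT-1015 in 92-1, MEL202 and MP41. Genes that carry the signal forward also rose with FHT-1015, PIK3R3 by 2.11, 2.01 and 2.53 and IRS1, the relative of IRS2, by 1.79, 1.16 and 1.10. The call of IRS1 in MEL202 was near the threshold (adjusted p = 0.0381 by edgeR's test). EIF4EBP1, which encodes a translation repressor that mTORC1 switches off, fell in all 4 comparisons, by 1.83 with IDE196 and by 1.47, 1.40 and 0.68 with FHT-1015. With IDE196 DEPTOR and PHLPP1 also rose (2.10 ± 0.33 and 1.22 ± 0.12), and RHEB (-0.85 ± 0.10) and AKT1 (-0.61 ± 0.08) fell.

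Among 22 genes whose proteins bind, export or modify FOXO proteins, 22 were tested with IDE196, of which 3 rose and 8 fell at 24 h, against 28.7% and 29.4% of all genes. The falls were led by XPO1, the nuclear exporter, CHUK, a kinase of the NF-kB pathway, and the 14-3-3 gene YWHAG, with log2 fold changes of -1.05 ± 0.11, -1.02 ± 0.10 and -0.86 ± 0.09. With FHT-1015 at 24 h 4 rose and 12 fell in 92-1, against 29.2% and 31.4% of all genes, 0 and 2 in MEL202, and 2 and 3 in MP41. SKP2, a ubiquitin ligase subunit for FOXO1, and CDK2 fell with FHT-1015 in the 3 lines, SKP2 by 1.16, 1.15 and 1.59 and CDK2 by 3.65, 2.45 and 3.09. Of 16 relatives of the 10 genes, 12 or 13 were tested, and with FHT-1015 at 24 h 5 rose and 4 fell in 92-1, 3 and 1 in MEL202 and 7 and 1 in MP41, beside 6 and 1 with IDE196. Among them ARRDC3, an arrestin-like relative of TXNIP, rose with FHT-1015 in the 3 lines (3.65 ± 0.14, 1.69 ± 0.36 and 3.51 ± 0.33) and was not called with IDE196 (-0.10 ± 0.16, adjusted p = 0.62). In a glucose-sensing list of 5 genes around MondoA, TXNIP included, 2 rose and 2 fell with IDE196 at 24 h and with FHT-1015 at 24 h in 92-1 and MP41, and 1 rose in MEL202. MLXIP, which encodes MondoA, fell with IDE196 (-0.26 ± 0.10, adjusted p = 0.0366), and so did its partner MLX (-0.59 ± 0.12, adjusted p = 0.000458). Whether these falls bear on TXNIP, which rose in the same libraries, was not tested.

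Across the 48 libraries, after the mean of the matching DMSO group was taken off each log2 CPM, the genes most like FBXO32 among 10946 were CDKN2C, a CDK4 and CDK6 inhibitor (r = 0.839), DNAJC6 (r = 0.838) and CDC42EP3 (r = 0.837). CDKN2C had log2 fold changes of -1.06 with FHT-1015 at 4 h in 92-1 and 0.87 with IDE196 at 4 h. The ranking itself picks genes with such values. The genes most like PIK3IP1 were AC016747.1 (r = 0.944), EZH1, a histone methyltransferase (r = 0.922), and LETMD1 (r = 0.893). Among the 10 genes themselves, CCNG2 was closest to TXNIP (r = 0.848) and SESN3 (r = 0.845), and BCL6 was least like FOXO3 (r = -0.0263) and IRS2 (r = -0.0189). These correlations describe libraries that share lines, drugs and controls. They include the IDE196 libraries at 4 h, whose rise helped choose FBXO32 and PIK3IP1.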

How the data were processed

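Polyadenylated RNA from frozen pellets was sequenced without strand information, per the labels' protocols. Values are the authors' unstranded counts of reads for each Ensembl gene, used as deposited. The submitters' processing notes name hg38 and limma; aligner and annotation are not given in the sources used here. A total of 58552 of 58870 identifiers matched GENCODE release 29 (47420 with the same version), which gave symbols and positions; 92 spike-in rows with 0 reads were left out.

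Each experiment of 12 libraries was fitted with edgeR 4.0.16 in R 4.3.3 (TMM scaling, filterByExpr, quasi-likelihood test), with Benjamini-Hochberg adjustment over all genes tested and a threshold of 0.05. Differences among lines and between drugs came from joint fits of 36 and 24 libraries. Errors of fold changes are standard errors, and 95% intervals are 1.96 of them to each side. CPM values are TMM-scaled within an experiment. Counting error was covered by the model, with a biological coefficient of variation of 0.117 in 92-1, 0.294 in MEL202, 0.217 in MP41 and 0.112 for IDE196. The fits were tested on simulated counts. Alternatives were DESeq2 1.42.0, limma-voom (limma 3.58.1), RLE size factors, no filter on low counts, the sum of both stranded columns, fits of all 48 or only the compared samples, the replicate number as a block, and leaving out each library.

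The 10 genes are named throughout; of each list, the genes called in one direction in all 3 lines with FHT-1015 at 24 h, and up to 3 of the largest rises and falls with IDE196 at 24 h, at a mean of at least 1 CPM, could be named, and some of them are. The members and lists were chosen with earlier results of these data known.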

Additional observations from a re-analysis of the deposited data

Results flagged for a closer look

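Effects that differed between lines, drugs or times are collected here, with adjusted p-values of the difference from edgeR's quasi-likelihood test.

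Among the 3 lines, the effect of FHT-1015 at 4 h differed for PIK3IP1 (1.41e-06), which stood at 2.61 (92-1), 0.82 (MEL202) and 0.03 (MP41) in log2 against DMSO. At 24 h it differed for PIK3IP1 (1.58e-05), SESN3 (0.000142), BCL6 (0.000173), FBXO32 (0.000175), CCNG2 (0.0241) and FOXO4 (0.0351). Between FHT-1015 and IDE196 in 92-1 at 24 h, the effect differed for FOXO3 (2.04e-10), IRS2 (5.99e-09), SESN3 (7.01e-09), BCL6 (6.33e-07) and FBXO32 (0.0252). At 4 h every FHT-1015 library of FOXO3, FBXO32 and SESN3 lay below its DMSO libraries and every IDE196 library above its own, a gap of -1.64, -3.40 and -3.02 in log2 fold change (FHT-1015 minus IDE196). These 3 gaps were not tested, since the IDE196 values at 4 h helped choose the genes.

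Between 4 h and 24 h of FHT-1015 in 92-1, the effect differed for SESN3 (1.96e-06), CCNG2 (4.67e-06), FOXO4 (5.05e-05), BCL6 (0.000148), FOXO1 (0.000697), FBXO32 (0.00215), FOXO3 (0.00359), IRS2 (0.0173), TXNIP (0.0193) and PIK3IP1 (0.0273). In 92-1 the call was lost for PIK3IP1 without DMSO 24 h replicate 1 or 3, DMSO 4 h replicate 3, FHT-1015 24 h replicate 1 or FHT-1015 4 h replicate 2 (0.0532 to 0.104), and for TXNIP without DMSO 4 h replicate 2 or FHT-1015 24 h replicate 2 or 3 (0.0515 to 0.058). In MEL202 it differed for FBXO32 (9.2e-05), TXNIP (0.00331) and CCNG2 (0.0198). In MP41 it differed for CCNG2 (0.000118), SESN3 (0.000128), PIK3IP1 (0.000371), FOXO1 (0.0013), TXNIP (0.00168), FBXO32 (0.0165), BCL6 (0.026) and FOXO3 (0.043). The MP41 calls of FOXO3 and BCL6 were each lost in 8 of 12 leave-one-out fits (0.0593 to 0.151 and 0.055 to 0.0968). The FOXO3 call was lost, too, when the 48 libraries shared a fit (0.104) and when no low-count filter was used (0.115), and BCL6 without the filter (0.0627). Among the leave-one-out fits FOXO3 kept its call only without DMSO 24 h replicate 2 or 3, FHT-1015 24 h replicate 3 or FHT-1015 4 h replicate 2, and BCL6 only without DMSO 24 h replicate 2 or 3, DMSO 4 h replicate 3 or FHT-1015 24 h replicate 3. The FBXO32 call was lost without DMSO 4 h replicate 3 (0.0515) or FHT-1015 4 h replicate 3 (0.0507).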

How the results depend on the processing

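Of 501 called values of single genes recomputed with another tool, filter, sample set or the replicate block, 489 stayed past the threshold in the same direction and 12 did not. Of 1032 recomputed without 1 library, 968 did and 64 did not. Among the values that have a sign, none of either changed it. Differences among lines are counted in both totals but have no direction, so for them only the threshold was followed. Many left-out libraries were of a time outside the comparison and could move it only through the shared fit. Leaving out libraries for differences between times, lines and drugs, and the likelihood ratio form of DESeq2, were chosen after seeing the data. Counts of called genes moved by over 1.5 times with limma-voom (8 at 4 h of FHT-1015 in 92-1, 1 in MP41, 5 for the time difference in MEL202, 3 among lines at 4 h), with DESeq2 (2 at 4 h and 6 for the time difference in MEL202) and with all 48 samples in one fit (4 and 6 there); the cause was not tested. Without 1 library the counts ran from 6 to 7, 5 to 8 and 8 to 9 at 24 h of FHT-1015 in 92-1, MEL202 and MP41, from 4 to 5, 0 to 0 and 0 to 0 at 4 h. They stayed at 9 with IDE196 at 24 h, and ran from 8 to 10, 2 to 4 and 5 to 9 for the time differences, from 1 to 2 and 4 to 7 among lines at 4 h and 24 h, and 4 to 6 between drugs.

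Signs changed only for values that were not called. With limma-voom these were TXNIP in 92-1 (-0.03) and FOXO3 in MEL202 (-0.03) at 4 h of FHT-1015, and CCNG2 between drugs (-0.11). Over fits without 1 library the sign-changing values ran, at 4 h of FHT-1015, from -0.02 to 0.33 for FOXO1 and -0.08 to 0.18 for TXNIP in 92-1, from -0.06 to 0.65 for FOXO3, -0.53 to 0.06 for CCNG2 and -1.02 to 0.06 for SESN3 in MEL202, and from -0.06 to 0.09 for PIK3IP1 in MP41. They ran from -0.21 to 0.05 for BCL6 with IDE196 at 24 h, and between drugs from -0.10 to 0.20 for CCNG2 and -0.49 to 0.31 for TXNIP.

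Replicate numbers are shared by FHT-1015 and its DMSO, but the labels do not say what a number marks, and the deviations of same-numbered libraries correlated above 0.1 in 3 of 18 pairs (-0.258 to 0.423). With the replicate number as a block, 6 and 8 genes were called in 92-1 at 4 h and 24 h, 0 and 6 in MEL202, and 0 and 8 in MP41; IRS2 (adjusted p = 0.0265) and BCL6 (0.0317) were gained at 4 h and FBXO32 (0.0459) at 24 h in 92-1, and the FOXO3 time difference in MP41 was lost (0.0576). Depth limits PIK3IP1 most, with 16 reads in its lowest library.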
